A study of Mus musculus with 30 samples.

Results

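Scd1, stearoyl-CoA desaturase, was measured in the livers of 30 mice by 2 probe sets of the Affymetrix MG_U74Av2 array, 94056_AT and 94057_G_AT. These were taken by their IDs from the 12488 probe sets of the deposited table, and both passed the filter on low values. The pairing of both IDs with Scd1 comes from the definition of the gene studied here, because the table lists IDs without gene names. For the same reason, markers of liver cell types and other genes of fatty acid synthesis were not analysed here.

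The animals were male C57Bl/6 mice of an age that the labels do not give. Treated mice got 1 of 3 PPAR-alpha agonists of the piperidine class, CP-775146, CP-868388 or CP-865520, which are known by code only, at a daily dose of 1 mg/kg. Controls got water, the vehicle. Livers were taken after 24 h or after 5 days, and each of the 8 groups held 4 arrays except CP-775146 at 5 days with 2. Each array carried RNA from a piece of whole frozen liver, so fewer cells of a type and less RNA per cell cannot be told apart.

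Stearoyl-CoA desaturase sits in the membrane of the endoplasmic reticulum and puts a double bond into saturated fatty acids, making oleate from stearate and palmitoleate from palmitate. These monounsaturated fatty acids are the main building blocks of liver triglycerides and cholesterol esters. In mouse liver Scd1 is the main desaturase of its family, its transcript is known to rise with carbohydrate feeding, insulin and the transcription factor SREBP-1c, and it is also a known target of PPAR-alpha agonists. In the RefSeq annotation of GRCm38.p6, where Scd1 has the gene ID 20249, its neighbour on one side is the related gene Scd4, followed by Scd2 and Scd3. Whether the probes also bind these relatives was not tested.

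Both Scd1 probe sets gave a strong signal in these livers under every treatment. Intensities are on the linear, scaled units of the deposited table, whose lowest possible value is 50. The intensity of 94056_AT ran from 5672 to 12754 over the 30 arrays, with a median of 9937. The intensity of 94057_G_AT ran from 6775 to 18488, with a median of 12873. Neither set came near the floor of 50 on any array. In both sets, the lowest array was replicate 3 of CP-868388 at 24 h, and the highest belonged to CP-868388 at 5 days (replicate 2 for 94056_AT, replicate 4 for 94057_G_AT).

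**Figure D1:**
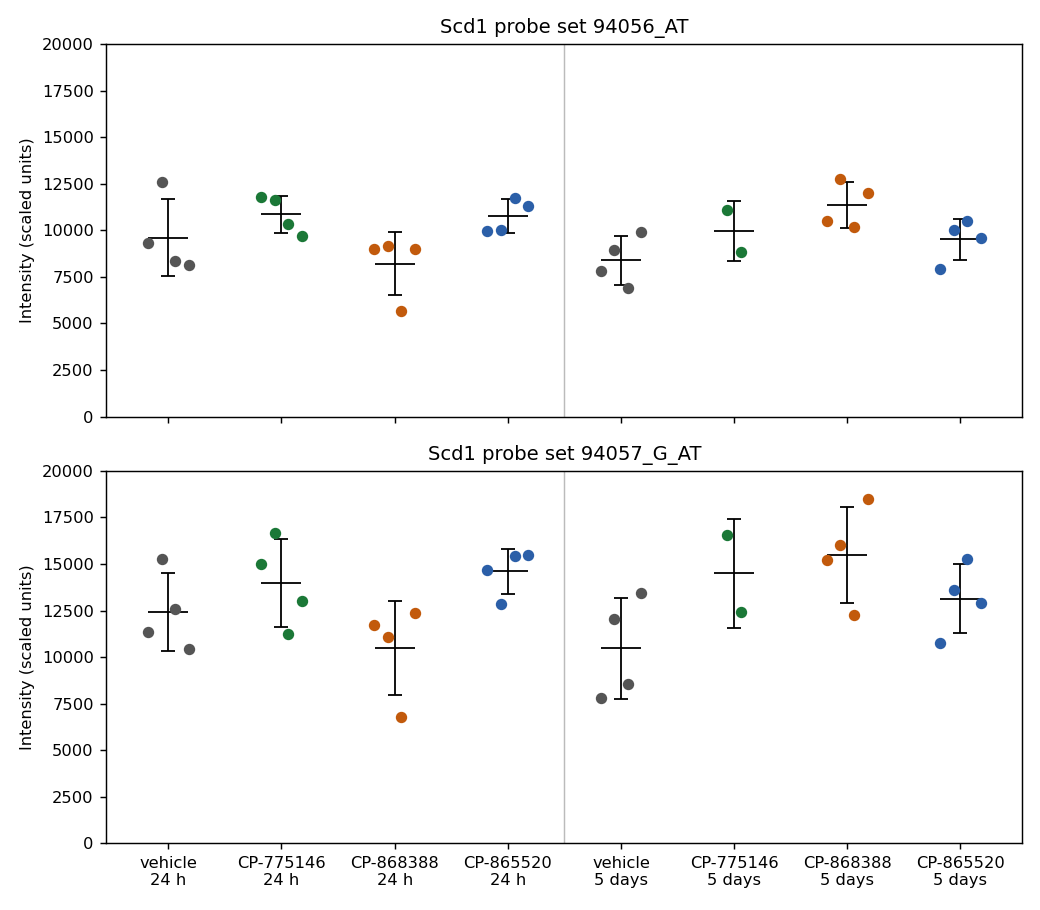
Intensity (scaled units, linear axis from 0) of the 2 Scd1 probe sets on each array, by compound and time; points are arrays in order of replicate number, horizontal marks are group means and bars are SD (n = 4, or n = 2 for CP-775146 at 5 days). All 4 arrays of CP-868388 at 5 days lie above all 4 vehicle arrays in 94056_AT, and 1 array of CP-868388 at 24 h lies far below the rest at 5672 and 6775.

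After 24 h, no difference in Scd1 between an agonist and vehicle passed limma's test, in either probe set. The vehicle livers had 94056_AT intensities of 9340, 12597, 8349 and 8122. Those given CP-775146 had 11774, 11610, 10348 and 9704, and those given CP-865520 had 9952, 10024, 11730 and 11318. Every liver of these 2 agonist groups lay above 3 of the vehicle livers and below the remaining one, replicate 2. The CP-868388 livers had 8999, 9172, 5672 and 8977, so that 3 lay inside the vehicle range and replicate 3 below it.

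The second probe set placed the same groups in a similar way. The vehicle intensities of 94057_G_AT at 24 h were 11338, 15258, 12598 and 10440. Under CP-775146 they were 15001, 16657, 11237 and 13026, under CP-868388 11748, 11099, 6775 and 12370, and under CP-865520 14660, 12854, 15420 and 15487. Each agonist group overlapped the vehicle livers, and the CP-865520 group stood highest with 2 of its 4 arrays above all vehicle arrays.

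Changes are differences of group means of log2(intensity + 50), a scale that for values this bright is close to a plain log ratio. CP-775146 differed from vehicle at 24 h by 0.19 ± 0.15 (SE) in 94056_AT and 0.17 ± 0.19 in 94057_G_AT, with limma adjusted p = 0.461 and 0.656. In this comparison 20% of all 7963 probe sets tested were called, which means an adjusted p under 0.05. CP-868388 differed by -0.23 ± 0.15 and -0.26 ± 0.19 (adjusted p = 0.259 and 0.307, 40.6% of all probe sets called). CP-865520 differed by 0.18 ± 0.15 and 0.25 ± 0.19 (adjusted p = 0.461 and 0.415, 20.3% called). The 95% intervals of these 6 differences, as folds, ran between 0.637 and 1.55, so a 2-fold change of Scd1 in either direction lay outside each of them. The intervals do not show that Scd1 stayed the same. Single arrays moved all but 1 of these 6 differences by more than 1.5 times, and none was called with an array left out. Without CP-868388 replicate 3, the differences of CP-868388 were -0.06 and -0.07. Without vehicle replicate 2, the highest vehicle liver, they were -0.09 and -0.16, those of CP-775146 were 0.33 and 0.27, and that of CP-865520 in 94056_AT was 0.32. Without vehicle replicate 4, the lowest, 94056_AT differed by 0.12 under CP-775146 and 0.11 under CP-865520, and 94057_G_AT by 0.09 under CP-775146. The 94057_G_AT value of CP-775146 was 0.08 without its replicate 2 and 0.27 without its replicate 3. The scaling between arrays also moved the differences of CP-868388. They were -0.38 and -0.45 with quantile normalization and -0.02 and -0.05 after centring on the array median, with none called.

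At 5 days Scd1 rose under CP-868388 in both probe sets, and the means of the other 2 agonists also lay above vehicle without passing the test. The 94056_AT intensities of the vehicle livers were 7786, 8947, 6885 and 9922. The CP-868388 livers had 10478, 12754, 10175 and 12023, all above all vehicle livers. Over all tested probe sets, 12.5% had every CP-868388 array above every vehicle array at 5 days. The CP-775146 livers had 11087 and 8806 and the CP-865520 livers 7937, 10021, 10487 and 9596, and both groups overlapped the vehicle livers.

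In 94057_G_AT the vehicle livers at 5 days were spread more widely, at 7804, 12040, 8577 and 13446. The CP-868388 livers had 15213, 16028, 12256 and 18488, of which only replicate 3 lay within the vehicle range. The CP-775146 livers had 16570 and 12427, and the CP-865520 livers 10786, 13621, 15265 and 12892. Vehicle replicates 2 and 4 were the high pair and replicates 1 and 3 the low pair in both sets.

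Under CP-868388 at 5 days, 94056_AT went from a mean intensity of 8385 ± 1328 (SD, n = 4) to 11357.5 ± 1234 (SD, n = 4), a log2 difference of 0.44 ± 0.15 (SE) or 1.36-fold (95% interval 1.10 to 1.69, limma adjusted p = 0.0226). The second set, 94057_G_AT, went from 10467 ± 2709 to 15496 ± 2570, a log2 difference of 0.59 ± 0.19 (SE) or 1.50-fold (1.15 to 1.96, adjusted p = 0.0157). In the same comparison 37.8% of all probe sets were called, so a call was common. Of all tested probe sets, 74.7% had a smaller absolute log2 difference than 94056_AT and 83.8% a smaller one than 94057_G_AT. Both kept their direction in all 21 refits with limma run for each set but lost the call in 5 of them, with adjusted p from 0.00144 to 0.0954 for 94056_AT and from 0.00124 to 0.0762 for 94057_G_AT. Leaving out vehicle replicate 1 (adjusted p = 0.0571 and 0.0739), vehicle replicate 3 (0.085 and 0.0536) or CP-868388 replicate 4 (0.053 and 0.0568) lost both calls, and leaving out CP-868388 replicate 2 lost that of 94056_AT (0.0708).

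The other agonists gave smaller differences from vehicle at 5 days. CP-775146 differed by 0.25 ± 0.19 (SE) in 94056_AT and 0.49 ± 0.23 in 94057_G_AT (limma adjusted p = 0.306 and 0.0987, 37.1% of all probe sets called). CP-865520 differed by 0.19 ± 0.15 and 0.35 ± 0.19 (adjusted p = 0.343 and 0.138, 42.1% called). Centring each array on its median moved the median change of all probe sets from -0.11 to 0.13 under CP-775146 and from -0.08 to 0.10 under CP-865520, and brought the CP-775146 differences to 0.48 and 0.72 and those of CP-865520 to 0.36 and 0.52, all with an adjusted p under 0.05. The CP-775146 difference of 94057_G_AT was also called without vehicle replicate 4 (0.62, adjusted p = 0.0425; over its 19 refits, from 0.00692 to 0.508). Quantile normalization instead lowered the differences, to 0.13 and 0.36 under CP-775146 and 0.10 and 0.20 under CP-865520, with none called. The CP-775146 differences rested on 2 livers: without replicate 1 they were 0.08 and 0.28, and without replicate 2 the 94056_AT difference was 0.41. Without vehicle replicate 3, the lowest in 94056_AT, that set differed by 0.16 under CP-775146 and 0.10 under CP-865520. Without vehicle replicate 1, the lowest in 94057_G_AT, that set differed by 0.22 under CP-865520. All 6 differences from vehicle at 5 days were above 0 under every alternative run, and their 95% intervals reached at most 1.96-fold.

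**Figure D2:**
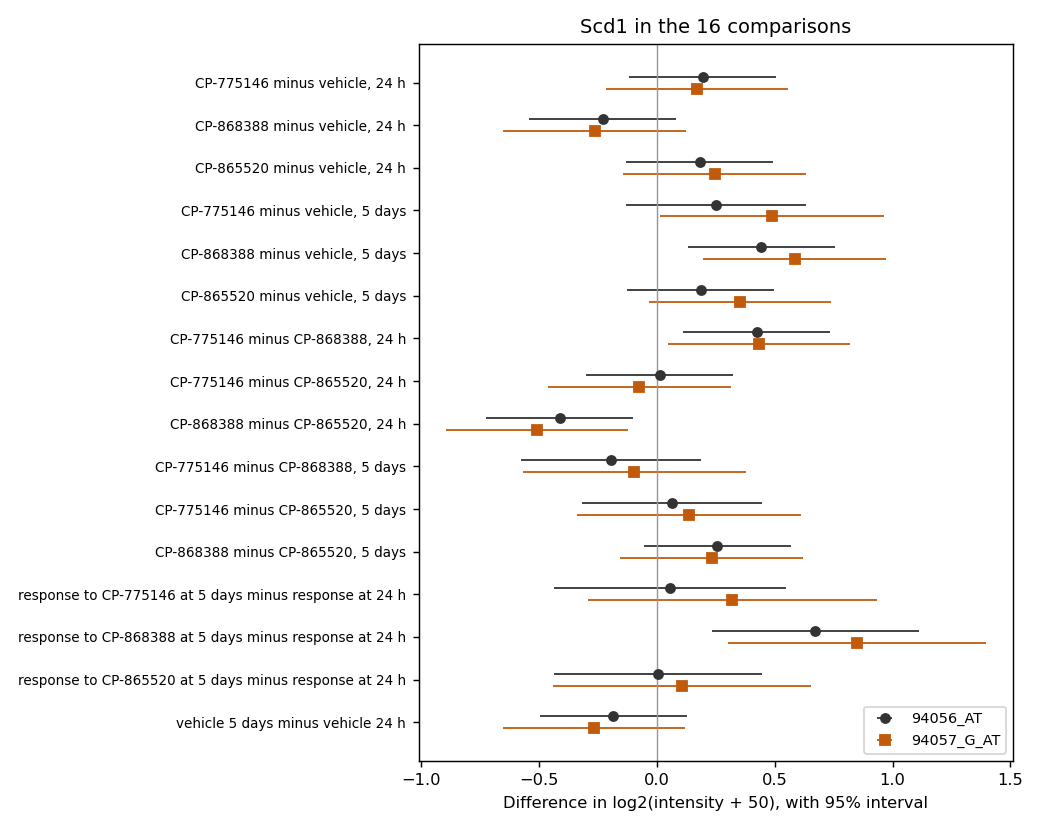
Differences in log2(intensity + 50) for the 16 comparisons, with 95% intervals from the fit over all 30 arrays, not adjusted for the number of comparisons; circles are 94056_AT and squares 94057_G_AT, and the vertical line marks 0. Both sets lie to the right of 0 for CP-868388 against vehicle at 5 days (0.44 and 0.59) and to the left for CP-868388 against CP-865520 at 24 h (-0.41 and -0.51).

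Set against each other at the same dose and time, CP-868388 and CP-865520 differed at 24 h, where Scd1 was lower under CP-868388. No 94056_AT or 94057_G_AT array of CP-868388 reached the lowest array of CP-865520 at 24 h. Over all tested probe sets, 14.3% were lower on every CP-868388 array than on every CP-865520 array. The difference, CP-868388 minus CP-865520, was -0.41 ± 0.15 (SE, adjusted p = 0.0442) in 94056_AT and -0.51 ± 0.19 (adjusted p = 0.0456) in 94057_G_AT, where 27.9% of all probe sets were called. These correspond to 0.752-fold and 0.703-fold.

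Both calls lay close to the threshold and were lost in 12 of 21 refits with limma for each set, with adjusted p from 0.0127 to 0.474 in 94056_AT and from 0.0272 to 0.456 in 94057_G_AT. RNA integrity was followed by 5'/3' ratios, in which the signal near the start of a control transcript is divided by that near its end, and it was lower in the CP-868388 livers at 24 h. The integrity score, the mean of 3 standardised ratios, was -1.35 ± 1.01 (SD, n = 4) there and 0.15 ± 1.34 under CP-865520. With this score as a covariate the differences were -0.23 and -0.32 (adjusted p = 0.427 and 0.385). Without the 3 arrays whose log2 ratio for Gapdh was below -0.4 they were -0.21 and -0.28 (0.474 and 0.456), and without CP-868388 replicate 3 alone -0.24 and -0.31 (0.245 and 0.244). Centring on the array median, which moved the median difference of all probe sets from -0.09 to 0.13, gave -0.20 and -0.30 (0.276 and 0.177). Leaving out replicate 1, 3 or 4 of CP-865520 also lost both calls, with adjusted p between 0.0516 and 0.112 and differences between -0.37 and -0.51. The 94056_AT call was lost without CP-865520 replicate 2 (-0.44, 0.0567), and the 94057_G_AT call without CP-868388 replicate 2 (-0.55, 0.0546).

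CP-775146 stood above CP-868388 at 24 h without passing the test. The difference was 0.42 ± 0.15 (SE, limma adjusted p = 0.055) in 94056_AT and 0.43 ± 0.19 (adjusted p = 0.119) in 94057_G_AT, with 16.4% of all probe sets called. The arrays of 94056_AT did not overlap, which held in this direction for 12.7% of all tested probe sets, and those of 94057_G_AT did. The 94056_AT difference was called without CP-868388 replicate 2 (0.49, adjusted p = 0.044) or replicate 4 (0.48, 0.0418), and over its 21 refits the adjusted p ran from 0.023 to 0.784. Without CP-868388 replicate 3 the differences were 0.26 and 0.24 (adjusted p = 0.305 and 0.521). With the integrity covariate the differences were 0.22 and 0.22.

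CP-775146 and CP-865520 gave Scd1 levels at 24 h that differed by 0.01 ± 0.15 (SE) in 94056_AT and -0.07 ± 0.19 in 94057_G_AT. Their limma adjusted p was 1 and 0.974, and 0.1% of all probe sets were called. The 95% intervals, -0.30 to 0.32 and -0.46 to 0.31 on the log2 scale, leave room for differences of that size either way.

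At 5 days no difference in Scd1 between agonists passed the test. CP-775146 minus CP-868388 was -0.19 ± 0.19 (SE) in 94056_AT and -0.10 ± 0.23 in 94057_G_AT (limma adjusted p = 0.882 and 1, 0.0753% of all probe sets called). Without CP-775146 replicate 1 it was -0.36 and -0.30, and without replicate 2 it was -0.03 and 0.11. CP-775146 minus CP-865520 was 0.06 ± 0.19 and 0.14 ± 0.23 (adjusted p = 1 in both, 0.0251% called). CP-868388 minus CP-865520 was 0.26 ± 0.15 and 0.23 ± 0.19 (adjusted p = 0.768 and 0.871, 0.0628% called). The 95% intervals of the 12 differences between agonists at both times ran from 0.537-fold to 1.77-fold. So the rise called under CP-868388 at 5 days and not under the other agonists is not a shown difference between the compounds.

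The response to CP-868388, its difference from vehicle, had a higher value at 5 days than at 24 h, when it was not called and lay near 0 with the integrity covariate (0.0155 in 94056_AT and -0.0024 in 94057_G_AT). Quantile normalization put the response at 24 h at -0.38 and -0.45. The change, the response at 5 days minus that at 24 h, was 0.67 ± 0.21 (SE) in 94056_AT and 0.85 ± 0.27 in 94057_G_AT. These sizes exceeded the absolute change of 96.8% and 98.5% of all tested probe sets, most of them dimmer than Scd1 and some compressed by the floor. The unadjusted limma p was 0.00423 and 0.00381, and the adjusted p, 0.0853 and 0.0801, did not pass in a comparison where 3.54% of all probe sets were called. Both were called without vehicle replicate 4 of 5 days (0.76 and 0.98, adjusted p = 0.0491 and 0.0359), and adjusted p over 29 alternatives each reached 0.414 and 0.374. With the integrity covariate the changes were 0.45 and 0.62, and without the 3 arrays of low Gapdh ratio 0.50 and 0.65. Without CP-868388 replicate 3 of 24 h they were 0.51 and 0.65.

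For the other agonists the change of the response between the times did not pass either. It was 0.05 ± 0.24 (SE) in 94056_AT and 0.32 ± 0.30 in 94057_G_AT for CP-775146 (limma adjusted p = 0.926 and 0.556, 4.81% of all probe sets called). For CP-865520 it was 0.00464 ± 0.214 and 0.11 ± 0.27 (adjusted p = 0.994 and 0.809, 17.3% called). Each change combines the agonist groups with both vehicle groups, so the difference between those enters it too. Vehicle at 5 days minus vehicle at 24 h was -0.19 ± 0.15 (SE) and -0.27 ± 0.19, neither of which passed (limma adjusted p = 0.396 and 0.32, 22.7% called). Without vehicle replicate 2 of 24 h these were -0.05 and -0.16. Without the lowest vehicle liver of 5 days, replicate 3 in 94056_AT and replicate 1 in 94057_G_AT, they were -0.10 and -0.14.

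Ordered by mean log2 level, 94056_AT was highest under CP-868388 at 5 days, followed by CP-775146 and CP-865520 at 24 h, CP-775146 and CP-865520 at 5 days, vehicle at 24 h, vehicle at 5 days and CP-868388 at 24 h. The order of 94057_G_AT was CP-868388 at 5 days, CP-865520 at 24 h, CP-775146 at 5 days, CP-775146 at 24 h, CP-865520 at 5 days, vehicle at 24 h, CP-868388 at 24 h and vehicle at 5 days. Every step between neighbours in either order was smaller than the larger SD of both groups, and the ranges of all neighbours overlapped. CP-868388 at 5 days was highest in both sets, and the lowest 3 places in both went to the same groups, CP-868388 at 24 h and vehicle at either time.

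The 2 probe sets agreed closely from liver to liver. Across the 30 arrays Pearson's r was 0.91 and Spearman's rho 0.87, each with a permutation p = 1e-05, the smallest that 100000 resamples can give. Without the 2 arrays farthest from the median, r was 0.85. Taken as deviations from the group means, so that treatment plays no part, r was 0.87 and rho 0.83 (permutation p within groups = 2e-05 and 4e-05). Within the 24 h arrays r was 0.92 and rho 0.79 (permutation p = 2e-05 and 0.00043), and within the 5-day arrays 0.92 and 0.93 (1e-05 for both). Adjusted over the 4 relations, no p exceeded 0.00043. The arrays share their RNA and scaling between the sets, so r covers these as well as the transcript. Whether the 2 sets share probes or target sequence was not tested, because no probe sequences were given.

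**Figure D3:**
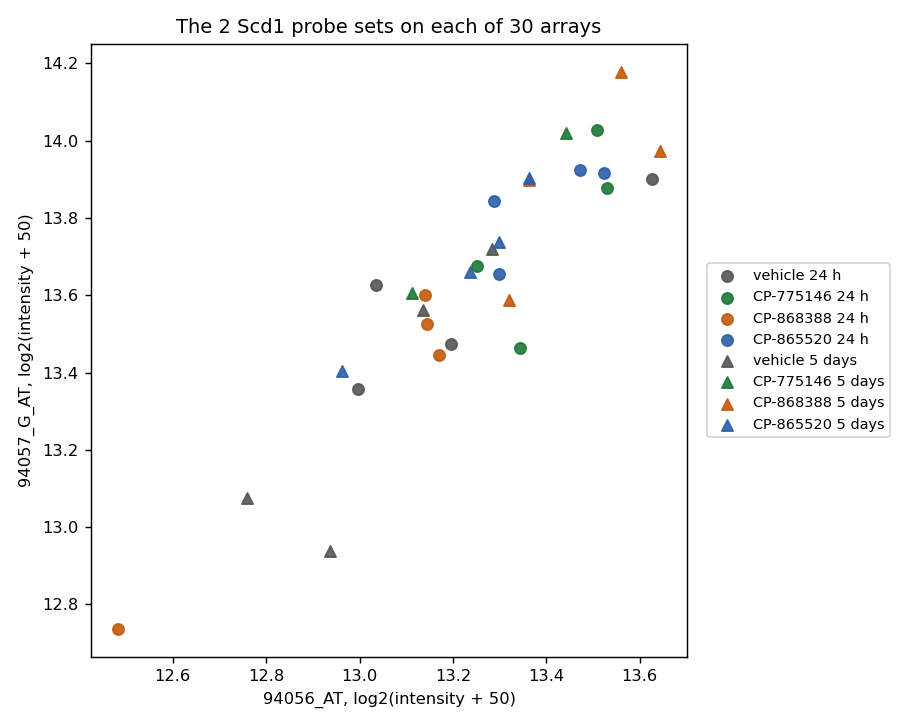
The 2 Scd1 probe sets on each of the 30 arrays, both axes in log2(intensity + 50); colours are treatments, circles 24 h and triangles 5 days. The points follow one line with r = 0.91, from replicate 3 of CP-868388 at 24 h at the lower left to replicates 2 and 4 of CP-868388 at 5 days, with replicate 2 of vehicle at 24 h among others, at the upper right.

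Of 4099 others that stayed above the floor throughout, none correlated with 94056_AT more than 94057_G_AT did, and none with 94057_G_AT more than 94056_AT did. This held over all arrays and for deviations from group means. The next best was 94906_AT over all arrays, at 0.82 with 94056_AT and 0.74 with 94057_G_AT. For deviations the next best reached 0.82 with 94056_AT and 0.76 with 94057_G_AT, against 0.87 between the Scd1 sets. In 33 of the 43 pairs of arrays of the same group, the sets put the same liver higher, and in 25 of 28 pairs of groups they put the same group higher.

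The direction of the difference was the same in both sets in 15 of 16 comparisons. The exception was CP-775146 against CP-865520 at 24 h, with differences close to 0. The change of 94057_G_AT was the larger in absolute size in 5 of 6 comparisons with vehicle. The gap between the changes, 94057_G_AT minus 94056_AT, was 0.24 under CP-775146 at 5 days (95% interval -0.01 to 0.49), 0.17 under CP-865520 (-0.04 to 0.37) and 0.14 under CP-868388 (-0.06 to 0.35). At 24 h it lay between -0.03 and 0.06. The gaps at 5 days share the vehicle group, whose replicate 1 had the lowest ratio of 94057_G_AT to 94056_AT of any array, 1.00. With 1 array left out, the gaps at 5 days reached as low as 0.14, 0.069 and 0.045, in the order given. None of the 13 gaps between pairs of groups passed an exact two-sided permutation test, with adjusted p of 0.817 or more. The smallest p such a test allows is 0.0286 for 4 arrays against 4 and 0.0667 for 2 against 4. After adjustment over 13 tests, a single gap at the smallest p could not pass, so this result does not show that the sets changed alike. Within a group, the log2 difference between the sets had an SD of 0.14, a factor of 1.10.

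Scd1 varied more between arrays of the same group than most probe sets did. With 1 array per mouse, differences between mice and between arrays cannot be told apart. The pooled SD within groups on the log2 scale was 0.22 for 94056_AT and 0.28 for 94057_G_AT (22 degrees of freedom), against a median of 0.17 over all 7963 tested probe sets. Of these, 75% had a smaller SD than 94056_AT and 89.7% a smaller one than 94057_G_AT. Among the 121 probe sets with a mean intensity above 5000, where the median SD was 0.15, the shares were 81.8% and 94.2%. Differences between arrays of a group made up 54.9% of the variance of 94056_AT over the arrays and 55.3% of that of 94057_G_AT. The highest liver exceeded the lowest 1.72-fold in the vehicle group of 5 days and 1.83-fold in the CP-868388 group of 24 h in 94057_G_AT. In the CP-865520 group of 24 h, the narrowest, this factor was 1.20.

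No correlation of Scd1 with the RNA integrity score passed adjustment. Over all arrays the correlation fell without 1 liver, while for deviations from group means it was of similar size and did not fall without 2 arrays. The mean of the 2 sets correlated with the integrity score over the 30 arrays at r = 0.38 and rho = 0.31 (permutation p = 0.0381 and 0.0983, adjusted over 5 relations 0.0953 and 0.164). Without the 2 arrays farthest from the median score r was 0.10, and without replicate 3 of CP-868388 at 24 h, left out after its value was seen, 0.14. That liver had the lowest score, -2.40, and the lowest Scd1 in both sets. Replicate 4 of CP-865520 at 24 h, with a score of -1.80, had Scd1 intensities of 11318 and 15487, among the higher ones of its time. Within groups, deviations of Scd1 went with those of the score at r = 0.36 and rho = 0.41 (permutation p = 0.0607 and 0.0427, adjusted 0.101 and 0.107), and without the 2 arrays farthest from the median r was 0.38. With those of the array's median they gave r = 0.49 and rho = 0.48 (permutation p = 0.0259 and 0.0333, adjusted 0.0953 and 0.107). Mean scores were 0.70 under vehicle at 24 h and 0.49 at 5 days. Under the agonists at 5 days they were -0.035 for CP-775146, 0.26 for CP-868388 and -0.60 for CP-865520. With the score as a covariate, CP-775146 differed from vehicle at 5 days by 0.31 in 94056_AT and 0.56 in 94057_G_AT. CP-865520 differed by 0.32 and 0.49 and CP-868388 by 0.47 and 0.61, with only CP-868388 called. No relation passed the adjustment, and the part of integrity or scaling in the Scd1 values was not tested beyond the covariate and centring values given above.

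**Figure D4:**
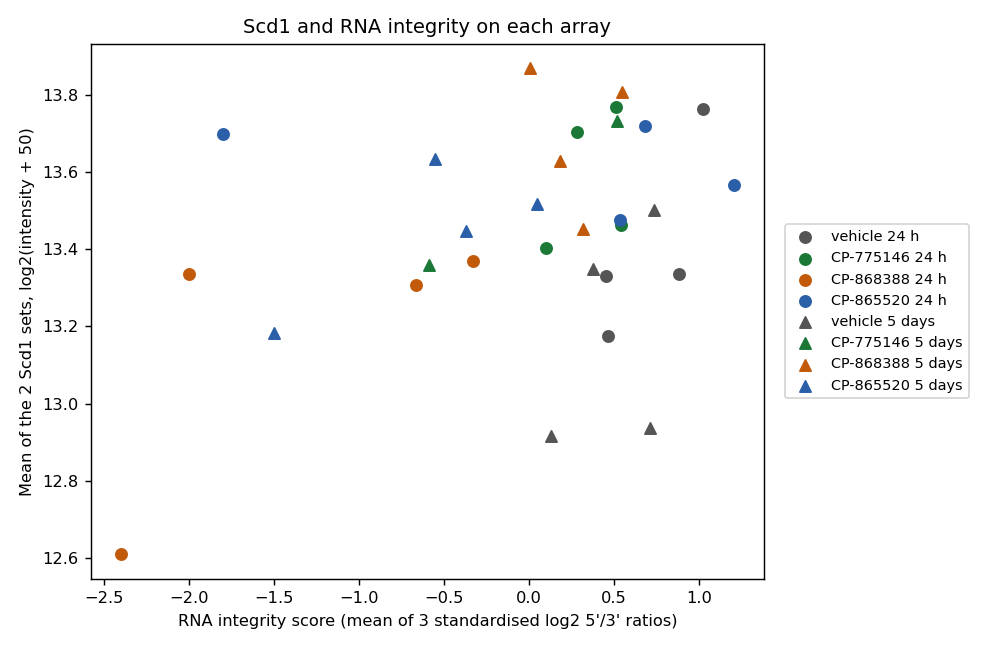
Mean of the 2 Scd1 sets, in log2(intensity + 50), against the RNA integrity score (mean of 3 standardised log2 5'/3' ratios, no unit; lower is less signal from the 5' end) on each array; colours are treatments, circles 24 h and triangles 5 days. One liver of CP-868388 at 24 h lies alone at the lower left, at a score of -2.40, and the other arrays with a score under -1.5 lie within the range of the rest.

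The probe sets whose levels followed Scd1 most closely were found among 4098 that stayed above the floor on all arrays. The measure was Pearson's r over 30 arrays with the mean of the 2 Scd1 sets. The closest was 94906_AT at r = 0.79, with r = 0.94 over the 8 group means and 0.64 for deviations from them. Its mean intensity was 6901 under vehicle and 6513.5 under CP-868388 at 24 h, 8309.5 and 8504 under CP-775146 and CP-865520, and 8196 under CP-868388 at 5 days. The second was 94325_AT at r = 0.72, which had its lowest group mean, 862.5, under vehicle at 5 days and its highest, 1852, under CP-868388 at that time. The next 3 had r between 0.68 and 0.69.

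The most opposed were 102291_AT at r = -0.64 and 93495_AT at r = -0.64. The mean of 102291_AT was 2116.5 under vehicle at 5 days and between 1358.5 and 1625.5 under the agonists, and that of 93495_AT was 800 against 580.5 to 604.5. The next 3 had r between -0.60 and -0.61. These probe sets were picked as the extremes of 4098, share arrays and scaling with Scd1, and carry no gene name here.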

How the data were processed

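The deposited intensities, on a linear scale, give each probe set 1 value on each array. MAS5 is the tool that the submitters' processing notes name. Its scaling target is not stated there. Array means lay between 314.1 and 318.2, so the deposited intensities had been brought to almost the same mean, and the smallest value was 50 throughout. Between 5600 and 6741 probe sets per array lay above that floor. The number of arrays limits the precision.

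Groups and replicate numbers came from sample titles, and each array was counted as 1 mouse, following the series' design text. The table held 12488 rows. After removal of 66 control probe sets and of sets above 50 on fewer than 2 arrays, 7963 were fitted as log2(intensity + 50), without further normalization, in limma 3.58.1 (R 4.3.3; lmFit, eBayes with trend) over all 30 arrays. Tests were two-sided with Benjamini-Hochberg adjustment over the 7963. Alternatives changed the pseudocount, the filter, the scaling between arrays, the covariates and weights, or the arrays used. Fits were tested on data simulated with independent noise for each probe set. Effects shared by the probe sets of an array were not simulated, so the test does not cover them. Exact permutation enumerated all arrangements of 2 groups, and correlations used 100000 resamples in Python 3.11.15. Replicate pairs within groups correlated at 0.973 to 0.992, and no pair was identical.

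The members and lists were chosen with earlier results of these data known. Probe sets beside Scd1 were those with the 5 highest and 5 lowest correlations with the mean of the 2 Scd1 sets. Only the first 2 on each side are named by ID. Gene lists and cell type markers that need gene symbols were not applied.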

Additional observations from a re-analysis of the deposited data

Results flagged for a closer look

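Replicate 3 of CP-868388 at 24 h had a 94056_AT intensity of 5672, far from the other 3 livers of its group at 8977 to 9172. Its gap to the nearest liver was 0.944 of the group's range, above Dixon's 95% critical value for 4 arrays. In 94057_G_AT the same liver was lowest at 6775, with a gap of 0.773 of the range, under that value. Of 14 groups of 4 arrays examined over both sets, this was the only one beyond the critical value, and chance gives about 1 in 20. The liver also had the lowest RNA integrity score (-2.40), a Gapdh log2 5'/3' ratio of -0.55 and the fewest probe sets above the floor (5600). Their part in its low Scd1 was not tested.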

How the results depend on the processing

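Differences are in log2, first 94056_AT and then 94057_G_AT where both are given, with limma adjusted p in parentheses. Of the 704 values of Scd1 refitted with limma, 626 kept their direction and their side of the threshold, 34 lost a call, 13 gained one and 31 changed direction. Only a called result can lose its call, and most results were uncalled. The lost calls were 5 of 21 refits in each set for CP-868388 minus vehicle at 5 days. For CP-868388 minus CP-865520 at 24 h they were 12 of 21 in each set. The causes of these changes were not tested. The rise under CP-868388 at 5 days lost its call with quantile normalization, at 0.38 (0.0954) and 0.52 (0.0588), and, in 94057_G_AT, in a fit of the compared groups alone (0.59, 0.0762). Without 1 replicate it ran from 0.35 to 0.53 and from 0.46 to 0.72.

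CP-868388 minus CP-865520 at 24 h was no longer called without the filter on low values (-0.41, 0.0779 and -0.51, 0.0854) or in the compared groups alone (0.142 and 0.127). The same held with array weights (-0.31, 0.098 and -0.41, 0.0802) and with centring on the array median (-0.20 and -0.30) or on sets above the floor (-0.26, 0.17 and -0.36, 0.121). With the integrity covariate the difference was -0.23 and -0.32, and without the 3 arrays of low Gapdh ratio -0.21 and -0.28. Without 1 replicate it ran from -0.47 to -0.24 and from -0.60 to -0.31. Exact permutation tests, 26 in all, are not counted here. Their smallest p, 0.0286 for 4 arrays against 4, was reached by both sets in this comparison. It was also reached by 94056_AT for CP-868388 minus vehicle at 5 days (0.0571 in 94057_G_AT) and CP-775146 minus CP-868388 at 24 h (0.0857). After adjustment 0.0286 became 0.186, 0.0571 became 0.297 and 0.0857 became 0.318, and so small a test says nothing about stability.

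Calls were gained at 5 days by centring on the array median, with CP-775146 at 0.48 (0.0254) and 0.72 (0.00692) and CP-865520 at 0.36 (0.0386) and 0.52 (0.0142). Centring on sets above the floor did so in 94057_G_AT alone, at 0.67 (0.0176) and 0.47 (0.0377). Quantile normalization gave lower values, 0.13 (0.711) and 0.36 (0.323) for CP-775146 and 0.10 (0.721) and 0.20 (0.516) for CP-865520. Without 1 replicate the values of CP-775146 ran from 0.08 to 0.41 and from 0.28 to 0.70, and those of CP-865520 from 0.10 to 0.27 and from 0.22 to 0.48. Leaving out either CP-775146 mouse of 5 days leaves 1, which is then assumed to vary like the other groups. CP-775146 minus CP-868388 at 24 h was called in 94056_AT with a stricter filter (0.42, 0.0347) and quantile normalization (0.58, 0.023), and ran from 0.26 to 0.49 without 1 replicate, and from 0.24 to 0.53 in 94057_G_AT. The change of the CP-868388 response with time ran from 0.51 to 0.76 and from 0.65 to 0.98.

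All differences that changed direction were uncalled. CP-868388 minus vehicle at 24 h became 0.015 (0.98) in 94056_AT with the integrity covariate. In that set CP-775146 minus CP-865520 at 24 h was -0.028 with quantile normalization and -0.012 with the integrity covariate, and at 5 days -0.0042 with the covariate. The time change of 94056_AT was -0.069 for CP-775146 and -0.13 for CP-865520 with quantile normalization, and -0.019 for CP-865520 with array weights. In 94057_G_AT, CP-775146 minus CP-865520 at 24 h was 0.016 after centring on the median, CP-775146 minus CP-868388 at 5 days 0.0042 after centring on sets above the floor, and the time change for CP-865520 -0.0098 with quantile normalization.

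Without 1 replicate, CP-775146 minus CP-865520 at 24 h ran from -0.027 to 0.065 and from -0.16 to 0.025, and at 5 days from -0.10 to 0.23 and from -0.069 to 0.34. CP-775146 minus CP-868388 at 5 days ran from -0.30 to 0.11 in 94057_G_AT. The time change ran from -0.11 to 0.22 for CP-775146 in 94056_AT, and for CP-865520 from -0.13 to 0.0897 and from -0.021 to 0.24. The gap between the sets' changes ran from -0.0797 to 0.054 for CP-775146 and from -0.073 to 0.038 for CP-868388 against vehicle at 24 h, from -0.046 to 0.087 for CP-775146 minus CP-868388 at 24 h, from -0.084 to 0.033 for CP-868388 minus CP-865520 at 5 days and from -0.13 to 0.016 between the vehicle groups.

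Same-numbered arrays of different groups did not deviate together on average (mean correlation -0.02, from -0.37 to 0.44, over 0.1 in 16 of 98 pairs). Of 294 pairs with different numbers, 75 were over 0.1. This gave no sign that the numbers pair the mice, but a mean near 0 does not settle it. A replicate block changed no call of Scd1, with 0.44 (0.0207) and 0.59 (0.0146) for CP-868388 at 5 days and -0.41 (0.0417) and -0.51 (0.0434) against CP-865520 at 24 h. The scaled values give no read depth. Signal over background was no limit for Scd1, and the precision is set by 4 mice per group and 2 under CP-775146 at 5 days.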
